A study of Homo sapiens with 9 samples.

Results

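The mitosis and spindle genes are 51 genes that carry cells from the entry into mitosis to the final cut between daughter cells, taken from a fixed list of symbols and looked up in the 25084 genes of the deposited expression table. All 51 were found, and all 51 also passed the filter for testing (1 CPM or more in 3 or more of the 9 libraries), as did 14495 genes of the whole table. CPM is a gene's read count scaled so that every library has the same total. The libraries came from LAN5, an established human neuroblastoma line with many extra copies of MYCN, grown in RPMI medium with fetal calf serum. Cells were electroporated with a control siRNA (siCTR, 3 libraries), an siRNA against MYCN labelled siMYCN_2 (3 libraries) or an siRNA against HAND2 labelled siHAND2_3 (3 libraries), and total RNA was taken 72 h later. Each target was thus met with a single numbered siRNA in a single line, by transient transfection. MYCN and HAND2 are transcription factors of the helix-loop-helix family, and the series addresses the genes that depend on them in these cells.

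Mitosis is driven by the kinase CDK1 bound to A- and B-type cyclins, which is switched on by CDC25 phosphatases and switched off when the anaphase-promoting complex marks the cyclins for destruction. Chromosomes are packed by condensins and topoisomerase II, captured by microtubules at kinetochores, moved by kinesins and held back by the spindle checkpoint until all are attached. Transcripts of many of these genes are low in G1 and rise in G2 and mitosis. In bulk RNA their level thus follows the share of dividing cells as well as the RNA made by each cell. In the present libraries fewer cells in G2 or mitosis and less RNA per cell cannot be told apart. In neuroblastoma, high MYCN goes with fast proliferation, and many of these genes are read as proliferation markers.

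Library depth, taken from the smallest step between low CPM values, lay between 21.1 and 32.7 M reads. The member with the fewest reads, CDC25C, still had 354 reads in its lowest library, which is a counting error of 5.32%, and for TOP2A that error was 0.610%. MYCN transcript ran from 1786 to 1894 CPM over the siCTR libraries, 1245 to 1338 over siMYCN and 877 to 969 over siHAND2, so siMYCN cells kept 70.0% and siHAND2 cells 49.6% of control. The siRNA against MYCN thus left most of its transcript in place, and MYCN was lower in siHAND2 than in siMYCN. HAND2 ran from 489 to 516 CPM in control, 557 to 588 after siMYCN and 267 to 280.4 after siHAND2. The labelled cell type was checked with 12 noradrenergic neuroblastoma markers, which were all present and summed to 2358 to 2501 CPM in control, 2870.1 to 3045 after siMYCN and 2122 to 2240.3 after siHAND2. That sum includes HAND2 itself, and of the 12 markers 9 rose and 0 fell in siMYCN while 3 rose and 5 fell in siHAND2. The marker TH was low, at 2.70 to 3.37 CPM in control, 3.91 to 4.42 after siMYCN and 1.18 to 1.59 after siHAND2. Of 7 fibroblast and mesenchymal markers found, 6 could be tested, and 5 rose in siMYCN and 6 in siHAND2, as did 6 in siHAND2 without replicate 3. Their sum, mostly VIM, was 596 to 647, 808 to 842 and 1211 to 1365 CPM, while COL1A1 stayed under 1 CPM in every library. The part of that change in the values below was not tested. Schwann cell, blood, epithelial and endothelial markers summed to at most 4.06 CPM per list and library.

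siHAND2 replicate 3 stood apart from the other siHAND2 libraries. It was the highest of its group for 36 of the 51 genes, against 13 for replicate 1 and 2 for replicate 2, and for 45.7% of all genes tested. The members' median absolute distance from the group mean was 0.072 on the log2 scale in that library and 0.020 to 0.037 in the other 8. Counts of members and lists in siHAND2 are therefore given with and without it, except by role. The labels do not say whether replicates came from separate cultures, so p-values measure only the spread between these samples.

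Most of the 51 genes did not pass the test in either knockdown, and those that did moved by a small amount. Against siCTR, 3 rose and 5 fell in siMYCN, where 24.5% of all tested genes rose and 11.4% fell. In siHAND2 2 rose and 4 fell, where 18.1% of all tested genes rose and 11.8% fell (limma on log2(CPM + 1), Benjamini-Hochberg adjusted p under 0.05). As shares of 51, the members called were 15.7% in siMYCN and 11.8% in siHAND2. In siMYCN the genes that fell were MAD2L1, AURKB, NCAPD2, BIRC5 and CCNB1 and those that rose were KIF4A, CDC25B and SPC24. In siHAND2 the genes that fell were NCAPD2, HMMR, MAD2L1 and AURKB and those that rose were SMC4 and ANLN. MAD2L1, AURKB and NCAPD2 fell in both, but the comparisons share their control libraries.

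No member changed by as much as 0.25 on the log2 scale in any comparison, whereas 3607 of all 14495 tested genes did so in siMYCN and 3176 in siHAND2. Of the 8498 tested genes with a mean CPM in the members' own range, 1833 did so in siMYCN and 1384 in siHAND2. The members' changes ran from -0.23 to 0.14 in siMYCN and from -0.20 to 0.14 in siHAND2. Their median was -0.0018 in siMYCN, beside 0.060 over all genes tested, and -0.013 in siHAND2, beside 0.039. Without regard to sign, the median change of the members was 0.069 in siMYCN and 0.050 in siHAND2, beside 0.14 and 0.12 over all genes. Among the 8498 genes with a mean CPM in the members' own range it was 0.13 and 0.11. Those genes had a median mean CPM of 49.5, beside 123 for the members, so abundance was not matched. The 95% intervals of the members had a median half-width of 0.10. Over all 51 of them the outermost bounds were -0.34 and 0.24 in siMYCN, or 0.792-fold to 1.18-fold, and -0.34 and 0.23 in siHAND2, or 0.789-fold to 1.18-fold. Each interval was set for 1 gene, with no allowance for reading 51 of them. The plots of log2 change by gene and of its size over all genes show this narrow spread.

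**Figure D1:**
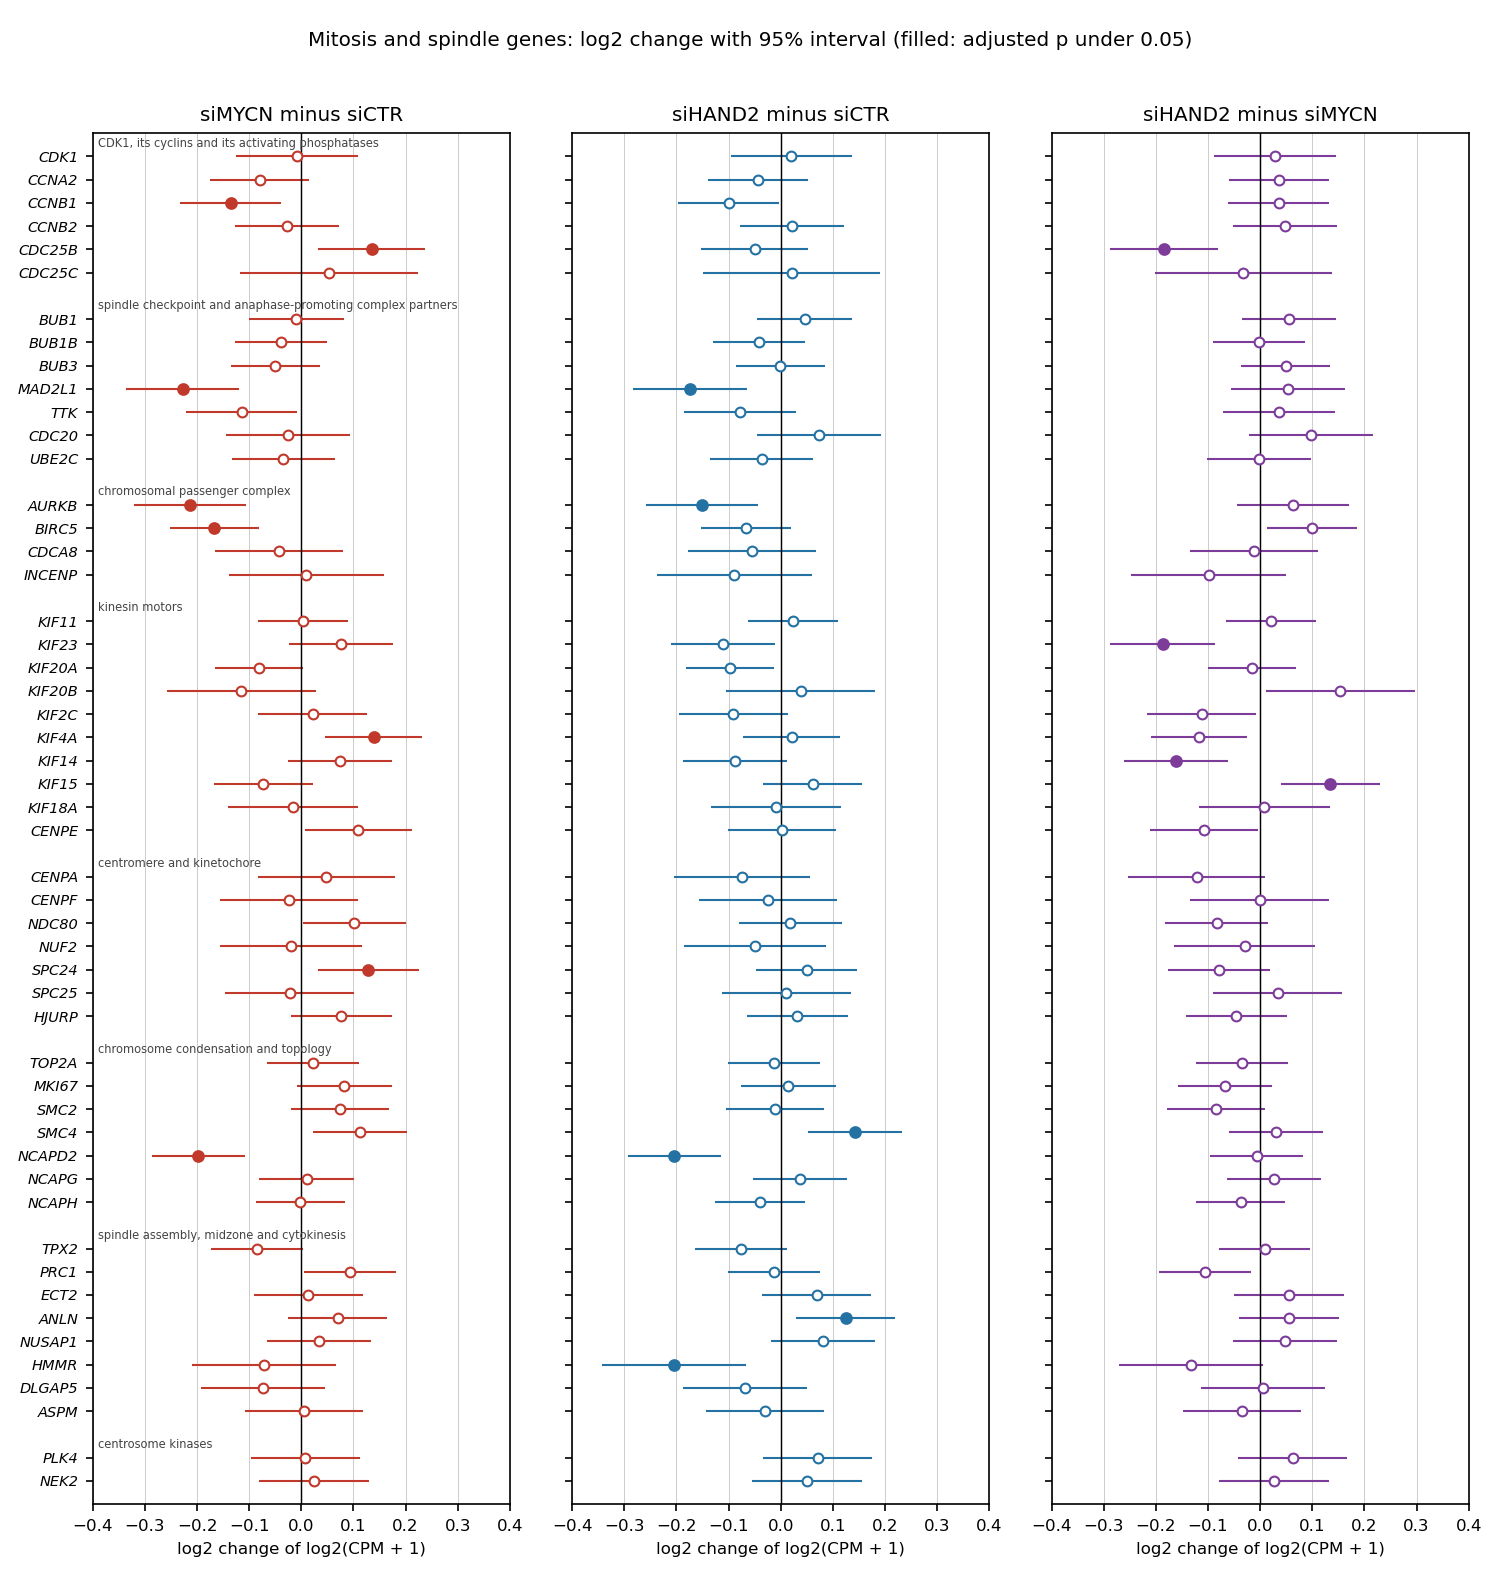
Log2 change of each of the 51 genes (horizontal axis, log2(CPM + 1) scale) in siMYCN and siHAND2 against siCTR and between the knockdowns, with limma 95% intervals, grouped by role, 3 libraries per group. Filled points passed an adjusted p of 0.05, and the outermost points are at -0.228 and 0.153.

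**Figure D2:**
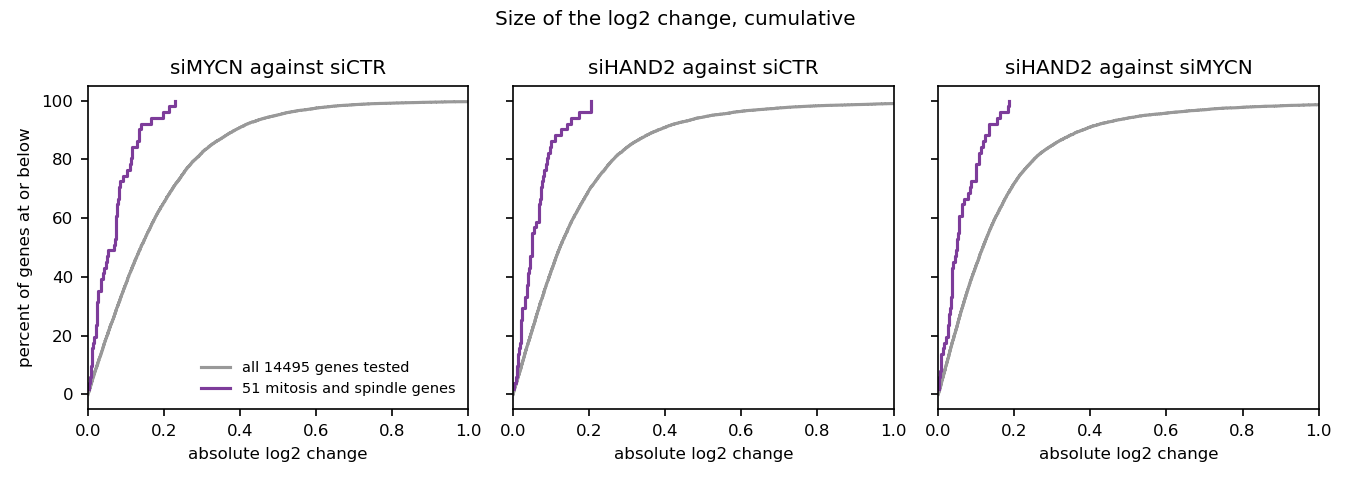
Cumulative share of genes (vertical axis, percent) by absolute log2 change (horizontal axis, shown up to 1) for the 51 genes and for all 14495 genes tested. The curves of the 51 genes end before 0.25 in each comparison, left of the curves of all genes.

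How many members rose or fell depended on the scaling of the libraries. CPM as deposited gave 3 higher and 5 lower in siMYCN, median-ratio rescaling 0 and 12, and quantile normalization 2 and 11. Of all tested genes, 16.6% were higher and 16.2% lower with median-ratio rescaling, and 16.1% were higher and 16.5% lower with quantile normalization. In siHAND2 the member counts were 2 and 4 as deposited, 0 and 9 with median-ratio rescaling and 1 and 6 with quantile normalization. There 13.4% were higher and 16.0% lower among all tested genes with the former rescaling, and 13.7% were higher and 14.9% lower with the latter. As shares of 51, the falls after median-ratio rescaling were above the share of all genes in siMYCN and near it in siHAND2, and the rises were below it in both. The members' median moved to -0.061 and -0.057 in siMYCN and to -0.058 and -0.028 in siHAND2. With median-ratio rescaling the median of all genes moved as well, to 0.0068 in siMYCN and -0.0022 in siHAND2. MAD2L1, AURKB, NCAPD2, BIRC5 and CCNB1 in siMYCN, and NCAPD2, HMMR, MAD2L1 and AURKB in siHAND2, passed under all 3 scalings, and of the rises only SMC4 in siHAND2 also passed under quantile normalization. Genes that passed as lower under both other scalings but not as deposited were CCNA2, BUB3, TTK, KIF20A, KIF15 and TPX2 in siMYCN and KIF23 and KIF20A in siHAND2. Leaving out 1 library at a time also moved the counts. In siMYCN no member rose without siCTR replicate 2 or without siMYCN replicate 1, 1 rose without siCTR replicate 3, 2 rose when any of siCTR replicate 1, siMYCN replicates 2 and 3 or siHAND2 replicate 2 was left out, and 6 rose without siHAND2 replicate 3, while 4 to 7 fell. In siHAND2 1 or 2 members fell when any siCTR library or siHAND2 replicate 1 or 2 was left out, and 0 to 2 rose. Over the fits that left out 1 library, 27.8% to 40.7% of all tested genes were called in siMYCN and 21.3% to 29.8% in siHAND2. Without siHAND2 replicate 3 the siHAND2 counts were 0 higher and 7 lower, where 17.1% of all tested genes were higher and 12.8% lower.

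The promoters of the 51 genes were read for the letters they share. Many G2 and mitosis genes are known to carry a cell cycle homology region (CHR, TTTGAA, with the variant TTTAAA) that is bound by the DREAM and MuvB complexes, together with CCAAT boxes bound by NF-Y, whereas MYC-family proteins favour the E-box CACGTG. RefSeq promoter windows (GRCh38.p14, 250 bases before to 50 after the start) were found for 46 of the 51 members and searched on both strands. For genes with more than 1 window, among them 8 members, a match in any window counted. The shares of all 27305 genes include genes that were not tested here, and no shares were taken over tested genes alone. TTTGAA was present in 35 of 46 members (76.1%) and 18.2% of all 27305 genes. CCAAT was present in 36 of 46 members (78.3%) and 39.7% of all 27305 genes, and the Sp1 box GGGCGG in 36 of 46 members (78.3%) and 48.3% of all 27305 genes. TTTAAA was present in 14 of 46 members (30.4%) and 14.5% of all 27305 genes. The E-box CACGTG was present in 4 of 46 members (8.70%) and 8.77% of all 27305 genes, these being ANLN, CCNB1, CENPE and CENPF. The wider form CANNTG, which includes CACGTG and is the core to which helix-loop-helix factors bind, was in 26 of 46 members (56.5%) and 73.1% of all 27305 genes. Of the 4 members with CACGTG, CCNB1 fell in siMYCN, ANLN rose in siHAND2, and CENPE and CENPF passed in neither. A match is only a run of letters and no measure of binding.

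The 250 bases before the start are printed here for the 3 genes that fell in both knockdowns (NCAPD2, MAD2L1 and AURKB), for CCNB1 and HMMR, which fell in 1, and for CCNB2, which stayed at control level. They are written 5′ to 3′ on the strand of the gene, in lower case, with matches of either strand to the CHR, its variant, the CCAAT box, the E-box and the Sp1 box in capitals (ATTGG is a CCAAT box and CCGCCC an Sp1 box read on the other strand).
NCAPD2, chr12:6493852-6494101, plus strand: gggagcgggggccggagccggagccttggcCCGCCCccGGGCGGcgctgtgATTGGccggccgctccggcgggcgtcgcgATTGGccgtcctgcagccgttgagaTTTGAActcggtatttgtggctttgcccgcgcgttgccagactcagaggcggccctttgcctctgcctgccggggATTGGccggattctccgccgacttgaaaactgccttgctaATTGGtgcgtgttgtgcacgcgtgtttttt
MAD2L1, chr4:120066849-120067098, minus strand: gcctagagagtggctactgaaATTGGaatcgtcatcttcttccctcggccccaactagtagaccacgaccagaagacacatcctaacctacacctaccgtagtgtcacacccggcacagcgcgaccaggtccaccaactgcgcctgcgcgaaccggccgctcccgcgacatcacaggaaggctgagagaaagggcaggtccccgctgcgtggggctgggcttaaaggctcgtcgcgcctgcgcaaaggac
AURKB, chr17:8210250-8210499, minus strand: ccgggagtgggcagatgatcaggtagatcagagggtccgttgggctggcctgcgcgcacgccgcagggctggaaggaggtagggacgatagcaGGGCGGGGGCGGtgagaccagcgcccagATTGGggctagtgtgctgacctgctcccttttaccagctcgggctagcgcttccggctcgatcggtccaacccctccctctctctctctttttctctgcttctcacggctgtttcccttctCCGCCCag
CCNB1, chr5:69166900-69167149, plus strand: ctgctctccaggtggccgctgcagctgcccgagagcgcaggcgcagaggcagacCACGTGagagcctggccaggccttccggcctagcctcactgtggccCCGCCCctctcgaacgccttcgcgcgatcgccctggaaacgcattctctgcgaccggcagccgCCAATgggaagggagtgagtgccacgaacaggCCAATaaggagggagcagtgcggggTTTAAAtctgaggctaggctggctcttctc
HMMR, chr5:163460382-163460631, plus strand: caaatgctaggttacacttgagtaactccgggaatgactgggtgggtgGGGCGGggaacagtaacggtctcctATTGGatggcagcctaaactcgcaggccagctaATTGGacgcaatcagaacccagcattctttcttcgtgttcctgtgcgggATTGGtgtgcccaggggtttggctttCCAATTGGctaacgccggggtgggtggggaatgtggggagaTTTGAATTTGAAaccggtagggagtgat
CCNB2, chr15:59104896-59105145, plus strand: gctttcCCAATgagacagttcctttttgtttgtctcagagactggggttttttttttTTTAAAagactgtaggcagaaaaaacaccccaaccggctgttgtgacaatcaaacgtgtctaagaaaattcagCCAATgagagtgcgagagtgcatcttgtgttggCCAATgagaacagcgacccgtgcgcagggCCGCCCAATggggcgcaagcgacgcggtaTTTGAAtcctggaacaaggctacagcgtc
CCNB2 and HMMR each show CCAAT boxes followed by TTTGAA close to the start. In HMMR 2 TTTGAA copies stand side by side. NCAPD2 has TTTGAA farther upstream among CCAAT boxes, and MAD2L1 has it only after the start, outside the printed stretch. AURKB has none in the window of the start used here, and its other listed start is not shown. CCNB1 carries CACGTG upstream of a pair of CCAAT boxes and TTTAAA. At the starts used, the 3 genes that fell in both knockdowns thus differ from each other in these letters, and none has CACGTG. The start used for NCAPD2 lies 746 bases inside the gene's span in the deposited table, that for HMMR 429 bases, and that for AURKB, which has 2 listed starts, 351 bases, so these 3 stretches lie within that span.

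Of the 6 genes of the CDK1 switch, CCNB1 fell and CDC25B rose in siMYCN, and none passed in siHAND2 (limma, 1 with an unadjusted p under 0.05). CDK1 (chromosome 10, 60778331 to 60794852, GRCh38), the master kinase of mitosis, measured 151, 157 and 155 CPM with control siRNA, 149, 160.4 and 152 after siMYCN and 147, 151 and 174 after siHAND2. Its log2 change was -0.0080 in siMYCN (95% interval -0.12 to 0.11) and 0.020 in siHAND2 (95% interval -0.10 to 0.14), and the groups overlapped. CCNB1, the cyclin B that CDK1 binds at the entry into mitosis, measured 162, 163 and 168 CPM across the control libraries, 144, 160.5 and 144 CPM after siMYCN and 152, 152 and 156 CPM after siHAND2. All 3 siMYCN and all 3 siHAND2 libraries lay below the siCTR libraries. CCNB1 fell to 91.1% of control in siMYCN, a log2 change of -0.14 (standard error 0.046, limma, adjusted p = 0.0291), and its siHAND2 value of -0.10 did not pass (adjusted p = 0.111). The siMYCN call was lost when siCTR library 1, 2 or 3, or siMYCN library 1 or 3 was left out (-0.15 to -0.11), and without the intensity trend of the fit. The related cyclin gene CCNB2 measured 101, 108 and 105 CPM across the control libraries, 100.2, 109.6 and 99.4 CPM after siMYCN and 106, 105 and 108 CPM after siHAND2. Its 3 groups overlapped, with changes of -0.027 and 0.021. CCNA2, the cyclin of S phase and G2, lay below all siCTR libraries in all siMYCN libraries, but its -0.080 in siMYCN (adjusted p = 0.184) and -0.044 in siHAND2 did not pass.

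The phosphatase gene CDC25B, whose product activates CDK1 at the centrosome, rose in siMYCN. CDC25B read 66.3, 67.0 and 63.9 CPM across the control libraries, 75.0, 69.3 and 72.5 CPM after siMYCN and 66.1, 63.8 and 60.6 CPM after siHAND2. All 3 siMYCN libraries were above every siCTR library, while the siHAND2 libraries overlapped with siCTR. The rise was to 110.0% of control, a log2 change of 0.13 (standard error 0.049, limma, adjusted p = 0.0400), and the siHAND2 value was -0.050 (adjusted p = 0.476). The call in siMYCN was lost when siCTR library 1, 2 or 3, or siMYCN library 1 or 3, or siHAND2 library 2 was left out (0.11 to 0.15) and after both other scalings (0.076 and 0.071), and with no filter on low values and without the intensity trend of the fit. CDC25C, a second phosphatase of CDK1 and the least abundant member at 15.6 ± 1.11 CPM in siCTR (SD, n = 3), differed by 0.053 and 0.021.

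Of the 7 genes of the spindle checkpoint and the anaphase-promoting complex partners, MAD2L1 fell in both knockdowns and the other 6 passed in neither. MAD2L1 (chromosome 4, 120055623 to 120066858) encodes MAD2, the checkpoint protein that keeps CDC20 from starting anaphase. MAD2L1 measured 268, 266 and 264 CPM across the control libraries, 223, 235 and 223 CPM after siMYCN and 223, 226 and 259.6 CPM after siHAND2. The siMYCN libraries and 2 of the 3 siHAND2 libraries lay well under the siCTR range, and siHAND2 replicate 3 lay just under it. MAD2L1 went to 85.4% of control in siMYCN, a log2 change of -0.23 (standard error 0.051, limma, adjusted p = 0.00259), the lowest value of any member in that comparison. In siHAND2 it went to 88.8%, a log2 change of -0.17 (standard error 0.051, limma, adjusted p = 0.0172). The siMYCN call held in all 9 fits that left out 1 library, and the siHAND2 call was lost when siCTR library 1 or 2, or siHAND2 library 1 or 2 was left out (-0.17 to -0.13), and without the intensity trend of the fit. The checkpoint kinase gene BUB1 measured 97.3, 105 and 102 CPM across the control libraries, 102, 102 and 98.6 CPM after siMYCN and 103, 104 and 107 CPM after siHAND2. CDC20, the activator of the anaphase-promoting complex, measured 31.2, 31.7 and 31.4 CPM across the control libraries, 30.7, 30.7 and 31.1 CPM after siMYCN and 35.3, 33.5 and 30.7 CPM after siHAND2. BUB1 overlapped with siCTR in both knockdowns (-0.0093 and 0.046). CDC20 in siMYCN was just under all siCTR libraries (-0.025) and in siHAND2 fell on both sides of them (0.073). CDC20 replicates in siHAND2 were spread more widely (33.1 ± 2.32 CPM) than in siCTR (31.4 ± 0.234 CPM). BUB1B, BUB3, TTK and UBE2C, which encode further checkpoint proteins and the ubiquitin-conjugating enzyme of the complex, differed by -0.11 (TTK) to -0.034 (UBE2C) in siMYCN and by -0.078 (TTK) to -0.00083 (BUB3) in siHAND2. TTK and BUB3 lay under every siCTR library in siMYCN.

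The chromosomal passenger complex, which corrects wrong attachments of chromosomes to the spindle, held 2 genes that fell in siMYCN, AURKB and BIRC5, among its 4 genes, and AURKB also fell in siHAND2. AURKB (chromosome 17, 8204733 to 8210600) encodes its kinase, Aurora B. AURKB measured 70.2, 73.4 and 74.8 CPM across the control libraries, 63.7, 66.0 and 58.5 CPM after siMYCN and 67.2, 65.2 and 64.0 CPM after siHAND2. Every knockdown library lay below every siCTR library. AURKB fell to 86.1% of control in siMYCN, a log2 change of -0.21 (standard error 0.051, limma, adjusted p = 0.00370), and to 89.9% in siHAND2, a log2 change of -0.15 (standard error 0.051, limma, adjusted p = 0.0336). The siHAND2 call was lost when siCTR library 2 or 3, or siHAND2 library 2 or 3 was left out (-0.15 to -0.13), and without the intensity trend of the fit. The siMYCN call held in all 9 fits that left out 1 library. BIRC5 (chromosome 17, 78214186 to 78225636) encodes survivin, which docks the complex on the centromere. BIRC5 measured 182, 178 and 184 CPM across the control libraries, 163, 167 and 155 CPM after siMYCN and 171, 175 and 173 CPM after siHAND2. Its siHAND2 libraries fell between the siCTR and the siMYCN libraries without touching either. BIRC5 fell to 89.1% of control in siMYCN, a log2 change of -0.17 (standard error 0.041, limma, adjusted p = 0.00440), which held in all 9 fits without 1 library, and its siHAND2 value of -0.067 did not pass (adjusted p = 0.234). The difference between the knockdowns was 0.10 (adjusted p = 0.0806) and passed only after median-ratio rescaling and quantile normalization. INCENP, the scaffold of the complex, measured 98.0, 92.0 and 89.1 CPM across the control libraries, 98.0, 89.1 and 93.9 CPM after siMYCN and 94.4, 93.3 and 75.6 CPM after siHAND2. In INCENP siHAND2 replicate 3 was far below all other libraries, and neither change passed (0.0095 and -0.089). The borealin gene CDCA8 measured 29.2, 31.0 and 28.5 CPM across the control libraries, 28.8, 29.8 and 27.5 CPM after siMYCN and 29.0, 29.5 and 26.9 CPM after siHAND2. Its groups overlapped, with -0.043 and -0.055.

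Among the 10 kinesin motor genes, 1 rose in siMYCN and none passed in siHAND2 (limma; KIF20A and KIF23, 2 genes, had an unadjusted p under 0.05 there). KIF4A (chromosome X, 70290104 to 70420886) encodes a chromosome-bound kinesin that shapes condensed chromosomes and the central spindle. KIF4A measured 104, 96.5 and 97.7 CPM across the control libraries, 112, 109 and 106 CPM after siMYCN and 103, 100.1 and 98.7 CPM after siHAND2. The siMYCN libraries were above every siCTR library, and the siHAND2 libraries lay inside the siCTR range. KIF4A rose to 110.2% of control in siMYCN, a log2 change of 0.14 (standard error 0.044, limma, adjusted p = 0.0211). That call was lost when siCTR library 2 or 3, or siMYCN library 1 was left out (0.12 to 0.13) and after both other scalings (0.079 and 0.090), and without the intensity trend of the fit. KIF11, the motor that pushes the spindle poles apart, measured 254, 239 and 240.0 CPM across the control libraries, 251, 239.8 and 243 CPM after siMYCN and 242, 247 and 256 CPM after siHAND2. KIF11 overlapped between the groups, with 0.0033 (95% interval -0.084 to 0.090) and 0.024 (95% interval -0.063 to 0.11). KIF20B measured 88.6, 80.7 and 93.5 CPM across the control libraries, 78.5, 82.9 and 80.6 CPM after siMYCN and 82.9, 86.1 and 102 CPM after siHAND2. Its siCTR and siHAND2 libraries were widely spread, and neither -0.12 nor 0.038 passed. KIF20A, a kinesin of the cleavage furrow, had -0.081 and -0.10, CENPE, which carries chromosomes to the spindle equator, 0.11 and 0.0023, and KIF2C, a microtubule depolymerase, 0.022 and -0.091, all short of the threshold. KIF20A lay below every siCTR library in both knockdowns, and CENPE above every siCTR library in siMYCN. KIF18A, which dampens chromosome movements at the spindle equator, had -0.017 and -0.0084.

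Of the 7 centromere and kinetochore genes, SPC24 rose in siMYCN and none passed in siHAND2 (limma, 0 with an unadjusted p under 0.05). SPC24 (chromosome 19, 11131520 to 11155808) encodes a subunit of the NDC80 complex, the main microtubule receptor of the kinetochore. SPC24 measured 86.0, 86.2 and 84.3 CPM across the control libraries, 96.3, 94.5 and 89.9 CPM after siMYCN and 92.5, 88.8 and 84.5 CPM after siHAND2. Its siMYCN libraries lay above siCTR, and its siHAND2 libraries lay partly inside and partly above the siCTR range. SPC24 rose to 109.5% of control in siMYCN, a log2 change of 0.13 (standard error 0.046, limma, adjusted p = 0.0385). The call was lost when siCTR library 1, 2 or 3, or siMYCN library 1 or 2 was left out (0.11 to 0.13) and after both other scalings (0.069 and 0.075), and with no filter on low values and without the intensity trend of the fit. The 3 partners of SPC24 in that complex had siMYCN values of 0.10 (NDC80), -0.020 (NUF2) and -0.023 (SPC25), none past the threshold, although all siMYCN libraries of NDC80 were above siCTR. CENPF, a large protein of the outer kinetochore, measured 1007, 919 and 1051 CPM across the control libraries, 942, 933 and 1054 CPM after siMYCN and 902, 975 and 1050.4 CPM after siHAND2. The centromeric histone gene CENPA measured 34.7, 31.2 and 32.5 CPM across the control libraries, 34.3, 34.8 and 32.6 CPM after siMYCN and 31.1, 28.8 and 33.5 CPM after siHAND2. Both genes overlapped between all 3 groups. HJURP, the chaperone that loads CENPA, differed by 0.077 and 0.032, with its siMYCN libraries above siCTR.

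Among the 7 genes of chromosome packing, NCAPD2 fell in both knockdowns and SMC4, its partner in condensin, rose in siHAND2. NCAPD2 (chromosome 12, 6493356 to 6531955) encodes a regulatory subunit of condensin I. NCAPD2 measured 252, 243 and 237 CPM across the control libraries, 220.2, 214 and 203 CPM after siMYCN and 216, 209.8 and 208 CPM after siHAND2. All 6 knockdown libraries were below all siCTR libraries, and the knockdowns overlapped with each other. NCAPD2 fell to 87.2% of control in siMYCN, a log2 change of -0.20 (standard error 0.042, limma, adjusted p = 0.00170), and to 86.7% in siHAND2, a log2 change of -0.20 (standard error 0.042, limma, adjusted p = 0.00164). Both calls held under all 9 other settings and in all 9 fits that left out 1 library. SMC4 (chromosome 3, 160399274 to 160434954) encodes a core ATPase of both condensins. SMC4 measured 444, 417 and 419 CPM across the control libraries, 453, 467 and 462 CPM after siMYCN and 459.6, 458 and 495 CPM after siHAND2. All knockdown libraries were above all siCTR libraries. SMC4 rose to 110.4% of control in siHAND2, a log2 change of 0.14 (standard error 0.043, limma, adjusted p = 0.0188), a call lost when siCTR library 2 or 3, or siHAND2 library 3 was left out (0.11 to 0.13) and after median-ratio rescaling (0.097), and without the intensity trend of the fit. In siMYCN its value of 0.11 missed the threshold (adjusted p = 0.0505).

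The other condensin genes did not pass: NCAPG had 0.010 and 0.037, NCAPH -0.0018 and -0.039, and SMC2, the partner ATPase of SMC4, 0.074 and -0.011, with its siMYCN libraries above siCTR. TOP2A, the topoisomerase that untangles sister chromatids, measured 1322, 1255 and 1275 CPM across the control libraries, 1309.6, 1301 and 1302 CPM after siMYCN and 1259, 1238 and 1322 CPM after siHAND2. These libraries overlapped, and the changes of 0.023 (95% interval -0.065 to 0.11) and -0.013 (95% interval -0.10 to 0.075) did not pass. The proliferation marker MKI67 measured 380.2, 377 and 391 CPM across the control libraries, 389.8, 404 and 423 CPM after siMYCN and 371, 390.1 and 399 CPM after siHAND2. For MKI67, siMYCN replicates 2 and 3 and siHAND2 replicate 3 were above all siCTR libraries, and the others were not. Its changes were 0.083 in siMYCN (95% interval -0.0079 to 0.17, adjusted p = 0.146) and 0.015 in siHAND2 (95% interval -0.076 to 0.11, adjusted p = 0.826).

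Among the 8 genes of spindle assembly, the midzone and cytokinesis, none passed in siMYCN (limma), where TPX2, PRC1 and the other 6 ran from -0.085 to 0.093 and 1 had an unadjusted p under 0.05. In siHAND2 HMMR fell and ANLN rose. HMMR (chromosome 5, 163460203 to 163491941) encodes a microtubule-binding protein of the spindle pole. HMMR measured 78.7, 78.7 and 79.5 CPM across the control libraries, 71.4, 85.0 and 69.7 CPM after siMYCN and 67.4, 64.8 and 73.3 CPM after siHAND2. The siHAND2 libraries were below all siCTR libraries, which lay within 1 CPM of each other, and siMYCN fell on both sides of siCTR. HMMR fell to 86.7% of control in siHAND2, a log2 change of -0.20 (standard error 0.065, limma, adjusted p = 0.0260), a call lost when siCTR library 1, 2 or 3, or siHAND2 library 1 or 2 was left out (-0.21 to -0.17), and without the intensity trend of the fit. ANLN (chromosome 7, 36389821 to 36453791) encodes anillin, which ties the contractile ring to the membrane. ANLN measured 134, 137 and 137 CPM across the control libraries, 137, 149 and 143 CPM after siMYCN and 147, 142 and 156 CPM after siHAND2. The siHAND2 libraries were above all siCTR libraries. ANLN rose to 109.2% of control, a log2 change of 0.12 (standard error 0.045, limma, adjusted p = 0.0467), a call lost when siCTR library 1, 2 or 3, or siMYCN library 3, or siHAND2 library 1 or 3 was left out (0.089 to 0.13) and under 5 of the 9 other settings.

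PRC1, which bundles microtubules at the midzone, measured 309, 302 and 302 CPM across the control libraries, 334, 317 and 323 CPM after siMYCN and 311, 287 and 307 CPM after siHAND2. TPX2, a spindle assembly factor, measured 231, 221 and 224 CPM across the control libraries, 222, 210.4 and 205 CPM after siMYCN and 217, 209.7 and 214 CPM after siHAND2. The siMYCN libraries of PRC1 were above siCTR and its change was 0.093 (adjusted p = 0.0948), while TPX2 overlapped and had -0.085 (adjusted p = 0.123). In siHAND2 PRC1 overlapped with siCTR (-0.013) and TPX2 lay below it (-0.076, adjusted p = 0.179). ASPM, NUSAP1, DLGAP5 and ECT2, which encode spindle pole, spindle and cytokinesis proteins, ran from -0.069 (DLGAP5) to 0.082 (NUSAP1) in siHAND2 and from -0.074 (DLGAP5) to 0.034 (NUSAP1) in siMYCN. The centrosome kinase gene PLK4, which starts centriole duplication, had 0.0079 and 0.071, and NEK2, which parts the centrosomes, 0.024 and 0.050. PLK4 measured 96.7, 95.4 and 103 CPM across the control libraries, 99.0, 97.8 and 100.0 CPM after siMYCN and 97.0, 104 and 109.8 CPM after siHAND2. NEK2 measured 38.7, 39.4 and 37.3 CPM across the control libraries, 39.3, 40.0 and 38.1 CPM after siMYCN and 40.1, 38.5 and 41.1 CPM after siHAND2. In neither kinase gene did a group stand clear of the others.

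**Figure D3:**
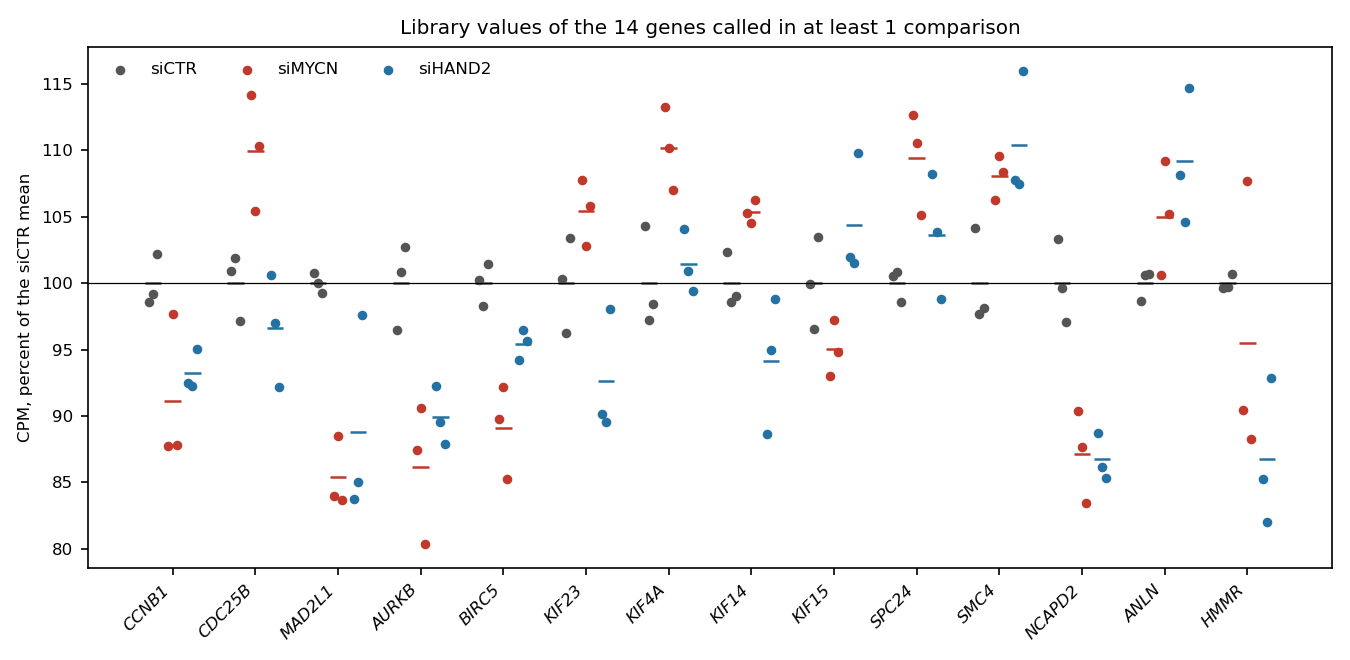
CPM of each library as a percent of the siCTR mean (vertical axis) for the 14 genes that passed an adjusted p of 0.05 in at least 1 of the 3 comparisons; points are the 3 libraries of a group and short lines their mean. NCAPD2, AURKB, MAD2L1, CCNB1 and BIRC5 have all 6 knockdown libraries under every control library, and in MAD2L1 siHAND2 replicate 3 sits just under control.

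The direct comparison of the knockdowns, whose difference does not use the control means, found 1 member higher and 3 lower in siHAND2 than in siMYCN, where 11.4% of all tested genes were higher and 15.5% lower. Of these 4 genes 3 were kinesins. KIF23, the motor of the central spindle, KIF14, a motor of the midbody, and KIF15, which helps KIF11 keep the poles apart, did not pass against control in either knockdown as deposited, where their values had opposite signs. KIF23 measured 94.3, 90.4 and 97.2 CPM across the control libraries, 101, 96.6 and 99.4 CPM after siMYCN and 84.7, 84.1 and 92.1 CPM after siHAND2. KIF14 measured 71.8, 69.1 and 69.4 CPM across the control libraries, 73.8, 73.3 and 74.5 CPM after siMYCN and 62.1, 66.6 and 69.3 CPM after siHAND2. KIF15 measured 124, 120.2 and 129 CPM across the control libraries, 116, 121 and 118 CPM after siMYCN and 127, 126 and 137 CPM after siHAND2. In each of the 3 genes the siMYCN and siHAND2 libraries did not overlap. KIF23 differed by -0.19 between the knockdowns (standard error 0.047, limma, adjusted p = 0.00741), with 0.076 in siMYCN and -0.11 in siHAND2 against control, and this call held under all 9 other settings and in all 9 fits that left out 1 library. KIF14 (0.074 and -0.087 against control) differed by -0.16 (adjusted p = 0.0178), and KIF15 (-0.073 and 0.061) by 0.13 (adjusted p = 0.0353). The KIF14 call was lost when siMYCN library 1 or 3, or siHAND2 library 1 was left out (-0.16 to -0.12) and after quantile normalization (-0.12). The KIF15 call was lost when siCTR library 1, or siMYCN library 1 or 3, or siHAND2 library 3 was left out (0.10 to 0.13), and when only the 2 groups compared were fitted and without the intensity trend of the fit. CDC25B differed by -0.18 (adjusted p = 0.00951), a call lost when siMYCN library 1 was left out (-0.16). Without siHAND2 replicate 3, 1 member was higher and 6 were lower, where 9.36% of all tested genes were higher and 15.1% lower. Over all 51 genes the outermost interval bounds were -0.29 and 0.30, and the median difference was -0.00098, beside -0.0063 over all genes tested.

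Summed over the 51 genes, the transcripts amounted to 9193, 8913 and 9182 CPM across the control libraries, 9002, 9112 and 9070.2 CPM after siMYCN and 8798, 8831 and 9386 CPM after siHAND2. Averaged by group this was 9096 ± 158 (siCTR), 9061 ± 55.2 (siMYCN) and 9005 ± 331 CPM (siHAND2, SD over n = 3), so siMYCN held 99.6% and siHAND2 99.0% of control. The 3 groups overlapped, with siHAND2 replicate 3 the highest of all 9 libraries and the other siHAND2 libraries the lowest. By role, the passenger complex genes summed to 379, 375 and 376 CPM with control siRNA, 353, 352 and 334 after siMYCN and 361, 363 and 339.8 after siHAND2, and all knockdown libraries were below control. The checkpoint genes summed to 1037, 1041 and 1032 CPM with control siRNA, 971, 989 and 958 after siMYCN and 971, 981 and 1040.5 after siHAND2, and siHAND2 replicate 3 lay inside the siCTR range. TOP2A and CENPF gave the largest shares of the total, and no test was made over the sums.

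**Figure D4:**
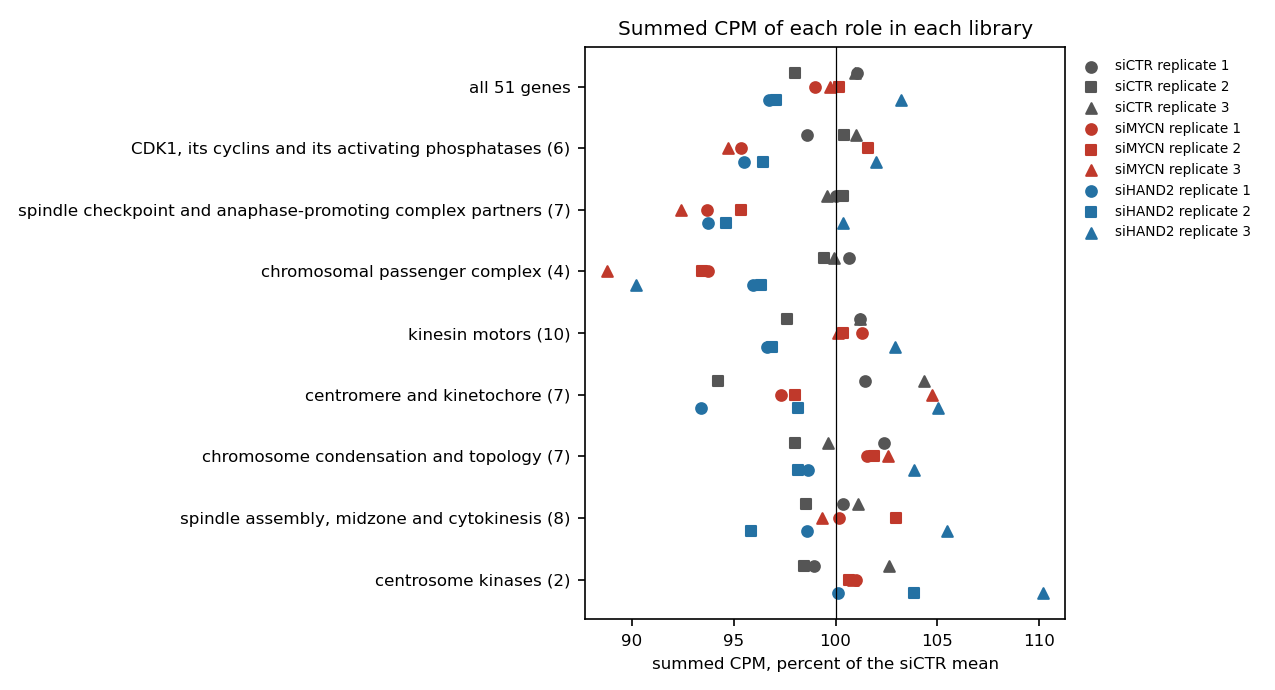
Summed CPM of the genes of each role in each library, as a percent of the siCTR mean (horizontal axis), with colour for the group and marker for the replicate. The passenger complex and checkpoint sums of siMYCN lie left of all siCTR libraries, and siHAND2 replicate 3 (blue triangle) is the rightmost siHAND2 point in all roles but the passenger complex.

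Per kilobase of transcript, the members were abundant in control cells, with a median of 30.1 CPM per kb beside 7.84 over the 12892 tested genes with a known transcript length. The level ran from 7.47 CPM per kb for CDC25C to 225 for TOP2A, with UBE2C (177) and NUSAP1 (113) next below TOP2A. Replicates were tight: the median coefficient of variation over members was 2.60% in siCTR, 3.37% in siMYCN and 4.70% in siHAND2. The median residual SD of the members was 0.054 on the log2 scale, beside 0.084 over all genes tested. It was 0.066 over genes in the same range of mean CPM, which were mostly less abundant than the members (median mean CPM 49.5 beside 123).

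Further genes of the same machinery, none of them among the 51, were read in 6 lists of 168 genes in all. Their counts stand beside the shares of all tested genes given above for the same comparison, scaling and libraries. In a list of other mitosis genes 16 of 55 rose and 3 fell in siMYCN (median 0.042, beside 0.060 over all genes), and 3 and 5 did so in siHAND2 (4 and 4 without siHAND2 replicate 3, median 0.036, beside 0.039). The siMYCN counts of that list turned to 7 higher and 11 lower with median-ratio rescaling and to 6 and 11 with quantile normalization, so their direction depended on the scaling. CKAP2L, a spindle protein gene, had means of 74.2 ± 2.25 CPM in control, 88.8 ± 1.58 after siMYCN and 78.6 ± 1.67 after siHAND2 (SD, n = 3 each) and rose by 0.26 in siMYCN (adjusted p = 0.000236). CKS2, which encodes a small CDK-binding protein, had means of 75.8 ± 1.64 CPM in control, 62.5 ± 3.32 after siMYCN and 68.7 ± 4.07 after siHAND2 and fell by 0.27 in siMYCN (adjusted p = 0.000734). SKA2, a kinetochore gene, rose by 0.19 in siMYCN (adjusted p = 0.00202) and by 0.23 in siHAND2 (adjusted p = 0.000366). PLK1, a mitotic kinase gene, fell by 0.16 in siMYCN (limma, adjusted p = 0.0288) and by 0.24 in siHAND2 (adjusted p = 0.00298).

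Of 17 genes of the anaphase-promoting complex 1 rose and 3 fell in siMYCN (median 0.017), and 1 and 1 did so in siHAND2 (2 and 1 without siHAND2 replicate 3, median 0.034). ANAPC1, its largest subunit, had means of 121 ± 3.23 CPM in control, 102 ± 3.00 after siMYCN and 105 ± 3.51 after siHAND2 (SD, n = 3 each) and fell in both, by 0.24 (adjusted p = 0.000472) and 0.20 (adjusted p = 0.00234). In the list of 15 cohesin and separase genes 5 rose and 1 fell in siMYCN (median 0.092), which became 1 and 1 under both other scalings, and 3 and 1 did so in siHAND2 (4 and 1 without siHAND2 replicate 3, median 0.036). PDS5B, a regulator of cohesin, rose by 0.33 in siHAND2 (adjusted p = 6.97e-05), with 0.10 in siMYCN (adjusted p = 0.129). Of 15 genes of the constitutive centromere network 2 rose and 2 fell in siMYCN (median 0.030), with CENPH at -0.28 (adjusted p = 0.000723) and CENPO at 0.22 (adjusted p = 0.00182), while in siHAND2 CENPO had 0.15 (adjusted p = 0.0237) and CENPH -0.079 (adjusted p = 0.298). In siHAND2 2 of the 15 rose and 1 fell (2 and 1 without siHAND2 replicate 3, median 0.041).

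Upstream of these genes, a list of 26 cell cycle regulators held transcriptional regulators and also the CDK inhibitor genes CDKN1A and CDKN1B. Of the 26, 6 rose and 2 fell in siMYCN (median 0.063), and 6 and 1 did so in siHAND2 (4 and 3 without siHAND2 replicate 3, median 0.055). The counts were 2 and 4 in siMYCN under both other scalings, and 4 and 4 (median-ratio) or 4 and 2 (quantile) in siHAND2. E2F8, a repressor of the E2F family, was low, with means of 6.42 ± 0.910 CPM in control, 8.73 ± 0.333 after siMYCN and 8.96 ± 0.661 after siHAND2 (SD, n = 3 each) and rose by 0.40 and 0.43 (adjusted p = 0.00327 and 0.00226). TFDP2, a dimer partner of E2F proteins, fell by 0.30 in siMYCN (adjusted p = 6.99e-05) and by 0.15 in siHAND2 (adjusted p = 0.0160). CDKN1B, the CDK inhibitor p27, rose by 0.23 in siMYCN (adjusted p = 0.000524) and by 0.12 in siHAND2 (adjusted p = 0.0406). CDKN1A, the CDK inhibitor p21, rose by 0.23 in siHAND2 (adjusted p = 0.00617), with 0.0012 in siMYCN (adjusted p = 0.990).

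S phase genes, which precede mitosis in the cycle, gave 3 rises and 7 falls among 40 in siMYCN and 7 rises and 1 fall in siHAND2 (7 and 1 without siHAND2 replicate 3). After median-ratio rescaling the counts were 0 and 14 in siMYCN and 3 and 1 in siHAND2, and after quantile normalization 0 and 12 and 4 and 1. Their median was -0.0089 in siMYCN and 0.039 in siHAND2. In the direct comparison 11 of the 40 were higher and 1 was lower in siHAND2 than in siMYCN, and the counts were 13 and 0 with median-ratio rescaling, 14 and 0 with quantiles made equal, and 10 and 1 without siHAND2 replicate 3. The rescaled counts stand beside 13.3% and 14.3% of all tested genes that were higher. The list's median difference was 0.066, beside -0.00098 for the 51 mitosis and spindle genes. UNG, which removes uracil from DNA, fell by 0.35 in siMYCN (adjusted p = 9.57e-06) and had -0.041 in siHAND2 (adjusted p = 0.50). RFC3, a clamp loader subunit, and RRM2, a subunit of ribonucleotide reductase, rose by 0.27 and 0.26 in siHAND2 (adjusted p = 8.30e-05 and 8.60e-05). In siMYCN RRM2 rose by 0.12 (adjusted p = 0.0249) and RFC3 had -0.078 (adjusted p = 0.140). Whether the lists differ from the 51 genes was not tested.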

How the data were processed

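RNA of 9 LAN5 libraries was sequenced, 3 per siRNA, and groups were taken from the siRNA names in the labels. The authors deposited 1 table of CPM, with a constant of 0.0001 in every value. STAR 2.5.1 and Partek are named in the submitters' processing notes, and the counting step and its use of strand are not given in the sources used here. The notes name hg19, but 91.4% of the table's gene starts lay within 5000 bases of the GRCh38.p14 RefSeq start and 5.65% within that distance of the GRCh37 start, so coordinates are given as GRCh38. Whole reads could be recovered for fewer than 95% of values, so no count model was used.

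Genes that reached 1 CPM in 3 or more libraries were tested with limma 3.58.1 in R 4.3.3 on log2(CPM + 1), which understates changes of low genes. All 9 libraries entered 1 fit with a mean per group and an intensity trend, and p-values were two-sided and Benjamini-Hochberg adjusted over all 14495 genes with a threshold of 0.05. Counting errors cover read sampling only. Alternatives changed the pseudocount, the filter, the scaling, the trend, the samples in the fit and the replicate block, and left out each library. Leaving out a library outside the 2 groups compared did not move the change itself. It altered only the estimate of spread and the genes tested, so such fits are a weaker check of a call. Counts of the lists without siHAND2 replicate 3 were added after seeing the data.

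The members and lists were chosen with earlier results of these data known. All 51 members could be named. Library values are printed for the member of each role with the highest and the lowest change in each knockdown and for the most abundant one, and for the 3 with the largest difference between knockdowns. CDK1, MKI67 and the promoters printed were chosen after the values were seen. From each list only some of the genes with the smallest p per comparison are printed. Transcript lengths are those of Ensembl canonical transcripts (GENCODE, by symbol).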

Additional observations from a re-analysis of the deposited data

How the results depend on the processing

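In siMYCN the 3 higher and 5 lower members became 0 and 12 with median-ratio rescaling, 2 and 11 with quantile normalization, 6 and 6 when only the 2 groups compared were fitted, 0 and 4 without the intensity trend, and 1 and 5 with no filter. In siHAND2 the 2 and 4 became 0 and 9, 1 and 6, 1 and 4, 0 and 1, and 1 and 4 in the same order. Between the knockdowns the 1 and 3 became 2 and 3, 2 and 3, 0 and 3, 0 and 3, and 1 and 3. The cause of these changes was not tested. Of all tested genes, 35.9% were called in siMYCN as reported, 40.4% with the 2 groups alone, 32.4% without the trend and 18.5% with no filter. In siHAND2 these shares were 29.9%, 28.8%, 26.7% and 16.2%, and between the knockdowns 26.9%, 23.7%, 23.6% and 14.9%. Pseudocounts of 0.1 and 5 left the counts as they were, and a filter of 5 CPM gave 4 and 5 in siMYCN and no other change. Leaving out 1 library at a time gave 0 to 6 higher and 4 to 7 lower in siMYCN, 0 to 2 and 1 to 7 in siHAND2, and 0 to 2 and 1 to 6 between the knockdowns. Of all tested genes, 27.8% to 40.7% were then called in siMYCN, 21.3% to 29.8% in siHAND2 and 20.2% to 27.4% between the knockdowns. The members' median then ran from -0.0072 to 0.0029, from -0.035 to 0.0076 and from -0.016 to 0.018. With the replicate number as a block the counts were 6 and 6, 2 and 5, and 2 and 6, where 40.7%, 35.1% and 32.3% of all tested genes were called. Same-numbered libraries deviated together with correlations of 0.17, 0.076 and 0.18 (siCTR and siMYCN), 0.13, 0.039 and 0.17 (siCTR and siHAND2) and 0.31, -0.040 and 0.17 (siMYCN and siHAND2), and every library correlated best with its own number only in the first of these pairs of groups, so the numbers were not taken to pair the samples. No call of a named member changed sign, and 57 sign changes occurred where neither fit called the gene. Counting error at these depths was at most 5.32% for any member and library.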
